A study of Mus musculus with 2 samples.

Results

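The genes described here are 10 mouse genes of MHC class I antigen presentation, chosen by symbol from the 32285 genes of the deposited count tables: B2m, H2-D1, H2-K1, H2-T23, Tap1, Tap2, Tapbp, Psmb8, Psmb9 and Nlrc5. All 10 were present in both tables. Their RNA was read cell by cell from the hippocampus of mice of 2 genotypes, aged 7 weeks. The WT group is C57BL6/J. The 60TM group is the GFAP-hGFAP line on the C57BL6/J background, in which a GFAP promoter drives human GFAP, the gene altered in Alexander disease, an astrocyte disorder. Each genotype has 1 library, made from the papain-dissociated hippocampi of 3 mice whose cells cannot be told apart, so no difference between genotypes was tested and no p-value is given. The human transgene has no row of its own in these mouse tables.

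MHC class I molecules show peptides from inside a cell to CD8+ T cells and natural killer cells. A heavy chain pairs with the light chain beta-2 microglobulin, encoded by B2m, which is needed for transport to the cell surface. Peptides are cut by the proteasome, carried into the endoplasmic reticulum by the transporter TAP and loaded onto the heavy chain with help from tapasin. Interferons raise the expression of most of these genes, and Nlrc5 encodes the transactivator that works on class I promoters. In the healthy brain, class I is known to be high in microglia and blood vessels and low in most neurons and oligodendrocytes.

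The WT library gave 6086 cells after filtering (57480919 UMIs, median 7212 per cell) and the 60TM library 7574 cells (70610233 UMIs, median 7494.5). The 2 libraries shared 20 cell barcodes, 14 of them among the kept cells. Cells were clustered without the 10 genes and the other class I genes, and clusters were named after the class whose markers they carried. A total of 12 classes had at least 50 cells in each library. Levels are in CPM, the UMIs of a gene summed over a class and scaled to all UMIs of that class, with a 95% interval that covers counting error only. A gene was called higher when the 60TM to WT ratio reached 1.5 with its interval above 1, and lower in the mirrored case, among genes with at least 20 UMIs in the class. In astrocytes the share of cells with a Gfap UMI, after thinning each cell to 2000 UMIs, was 28.7% in WT and 71.7% in 60TM.

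Of the 10 genes, 8 lie within 2.12 Mb of chromosome 17 (GRCm38, GENCODE M21), in the mouse MHC. H2-D1 is at chr17:35262730-35267499 on the plus strand, H2-K1 at chr17:33996017-34000347 on the minus strand and H2-T23 at chr17:36029773-36032855 on the minus strand. The processing genes lie side by side: Psmb9 at chr17:34181987-34187764, minus strand, Tap1 at chr17:34187553-34197225, Psmb8 at chr17:34197721-34201454 and Tap2 at chr17:34203527-34216321, the latter genes on the plus strand. Tapbp is at chr17:33915899-33929292, B2m at chr2:122147686-122153083 and Nlrc5 at chr8:94434356-94527272, each on the plus strand. All 10 are annotated as protein coding, and the 3′ libraries read mainly the end of the transcript, so their exons were not told apart. Tap1 and Psmb9 overlap at their 5′ ends on opposite strands. Class I heavy chains are close relatives, so reads can be assigned to the wrong one or lost. In the last 500 transcribed bases, none of the 411 windows of 90 bases of H2-D1 or H2-K1 occurred in a transcript of another gene, against 55 of 411 (13.4%) for H2-T23.

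Genes called higher in 60TM in more than 1 class include Psmb8 and Tap2, which are not shown here. Psmb8 held neither pattern marked below, and Tap2 has no promoter entry. Upstream sequences are shown for B2m, the heavy chain genes and the Tap1 and Psmb9 pair, which were also called in more than 1 class. They were read from RefSeq's promoter table (GRCm38.p6), which holds 8 of the 10 genes, and run 5′ to 3′ on the gene's strand over the 250 bases before the start, or, for Tap1 and Psmb9, over the 225 bases between their 2 starts on the plus strand. Capitals mark exact matches, on either strand, to an NF-kB pattern (GGGNNTTCC) or to the core of the interferon-stimulated response element, ISRE (a pair of GAAA blocks with any 2 bases between them).
H2-D1, chr17:35262844-35263093, plus strand: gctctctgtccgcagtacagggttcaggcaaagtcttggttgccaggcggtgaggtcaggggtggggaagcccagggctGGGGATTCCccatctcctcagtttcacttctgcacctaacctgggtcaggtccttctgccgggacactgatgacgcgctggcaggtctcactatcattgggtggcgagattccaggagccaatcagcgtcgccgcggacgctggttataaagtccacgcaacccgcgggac
H2-K1, chr17:34000348-34000597, minus strand: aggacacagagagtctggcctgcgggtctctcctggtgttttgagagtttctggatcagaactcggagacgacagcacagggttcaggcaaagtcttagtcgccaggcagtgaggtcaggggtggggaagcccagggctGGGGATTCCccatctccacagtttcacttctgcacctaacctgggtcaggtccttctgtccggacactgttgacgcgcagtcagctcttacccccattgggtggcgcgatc
B2m, chr2:122147437-122147686, plus strand: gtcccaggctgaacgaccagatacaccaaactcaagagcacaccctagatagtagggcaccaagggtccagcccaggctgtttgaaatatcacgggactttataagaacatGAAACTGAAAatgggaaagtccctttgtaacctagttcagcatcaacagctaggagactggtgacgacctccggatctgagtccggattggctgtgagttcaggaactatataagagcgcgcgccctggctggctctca
H2-T23, chr17:36032702-36032951, minus strand: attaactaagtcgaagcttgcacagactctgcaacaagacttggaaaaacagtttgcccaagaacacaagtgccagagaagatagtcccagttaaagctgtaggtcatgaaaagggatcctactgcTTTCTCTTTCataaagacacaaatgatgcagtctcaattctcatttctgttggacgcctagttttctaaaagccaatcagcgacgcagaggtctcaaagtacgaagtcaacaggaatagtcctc
Tap1 and Psmb9, chr17:34187331-34187555, plus strand: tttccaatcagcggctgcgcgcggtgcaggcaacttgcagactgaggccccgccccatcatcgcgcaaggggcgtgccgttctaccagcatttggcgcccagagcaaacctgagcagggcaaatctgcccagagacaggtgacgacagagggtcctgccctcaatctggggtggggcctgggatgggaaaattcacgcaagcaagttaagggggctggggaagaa

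H2-D1 and H2-K1 each held 1 NF-kB match, at position -171 and at position -111 from the start (-125 from a further start that the table gives for H2-K1), and B2m and H2-T23 each held 1 ISRE core match, at -139 and -124. Over the full table windows (250 bases before to 50 after the start), the NF-kB pattern was present in 5.82% of 32851 promoters and the ISRE core in 3.44%. A match to the GAS pattern TTCNNNGAA, which reads the same on both strands, was present in Psmb8 of the 8 genes and in 8.30% of promoters. The CRE core TGACG was present in 5 of 8 (B2m, H2-D1, H2-K1, Tap1 and Psmb9) and in 20.8% of promoters, and the CCAAT box (CCAAT) in 7 of 8, without Psmb8, and in 37.4%. Tap1 and Psmb9 share their matches, since their windows overlap. None of these matches overlapped another in the same window. They describe letters in the windows and were not linked to binding. Only exact matches were counted. A window without one, as for the ISRE core in H2-D1 and H2-K1, can still hold a variant of the pattern.

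The levels of the class I genes set the cell classes apart in both libraries. The summed level of the 10 genes in WT was highest in border macrophages (4144 CPM, 3960 to 4335), then microglia (3222, 3192 to 3253), endothelial cells (2724, 2606 to 2846) and pericytes (973, 873 to 1081), whose cluster was led by Col1a2, a gene also known from fibroblasts. OPCs, the oligodendrocyte precursor cells, stood at 443 CPM (395 to 496) and astrocytes at 355 (339 to 372). Choroid plexus cells (182, 157 to 209) and Cajal-Retzius cells (147, 122 to 175) overlapped in their intervals, and Cajal-Retzius cells overlapped with committed oligodendrocyte precursors (129, 112 to 147). Oligodendrocytes (103, 98.4 to 107), neurons (98.6, 79.9 to 120) and immature neurons (87.3, 76.2 to 99.5) came last, each overlapping with its neighbour in that order. In 60TM the first 4 classes kept this order, astrocytes came next at 749 CPM (736 to 763) above OPCs at 587 (544 to 633), and oligodendrocytes followed at 262 (254 to 271). The sum does not weigh the genes equally. In WT, B2m made up from 18.3% of it in Cajal-Retzius cells to 53.8% in microglia. Microglia held 82.7% of the WT library's B2m UMIs and 76.7% of those in 60TM, with 23.1% and 26.5% of all UMIs.

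**Figure D1:**
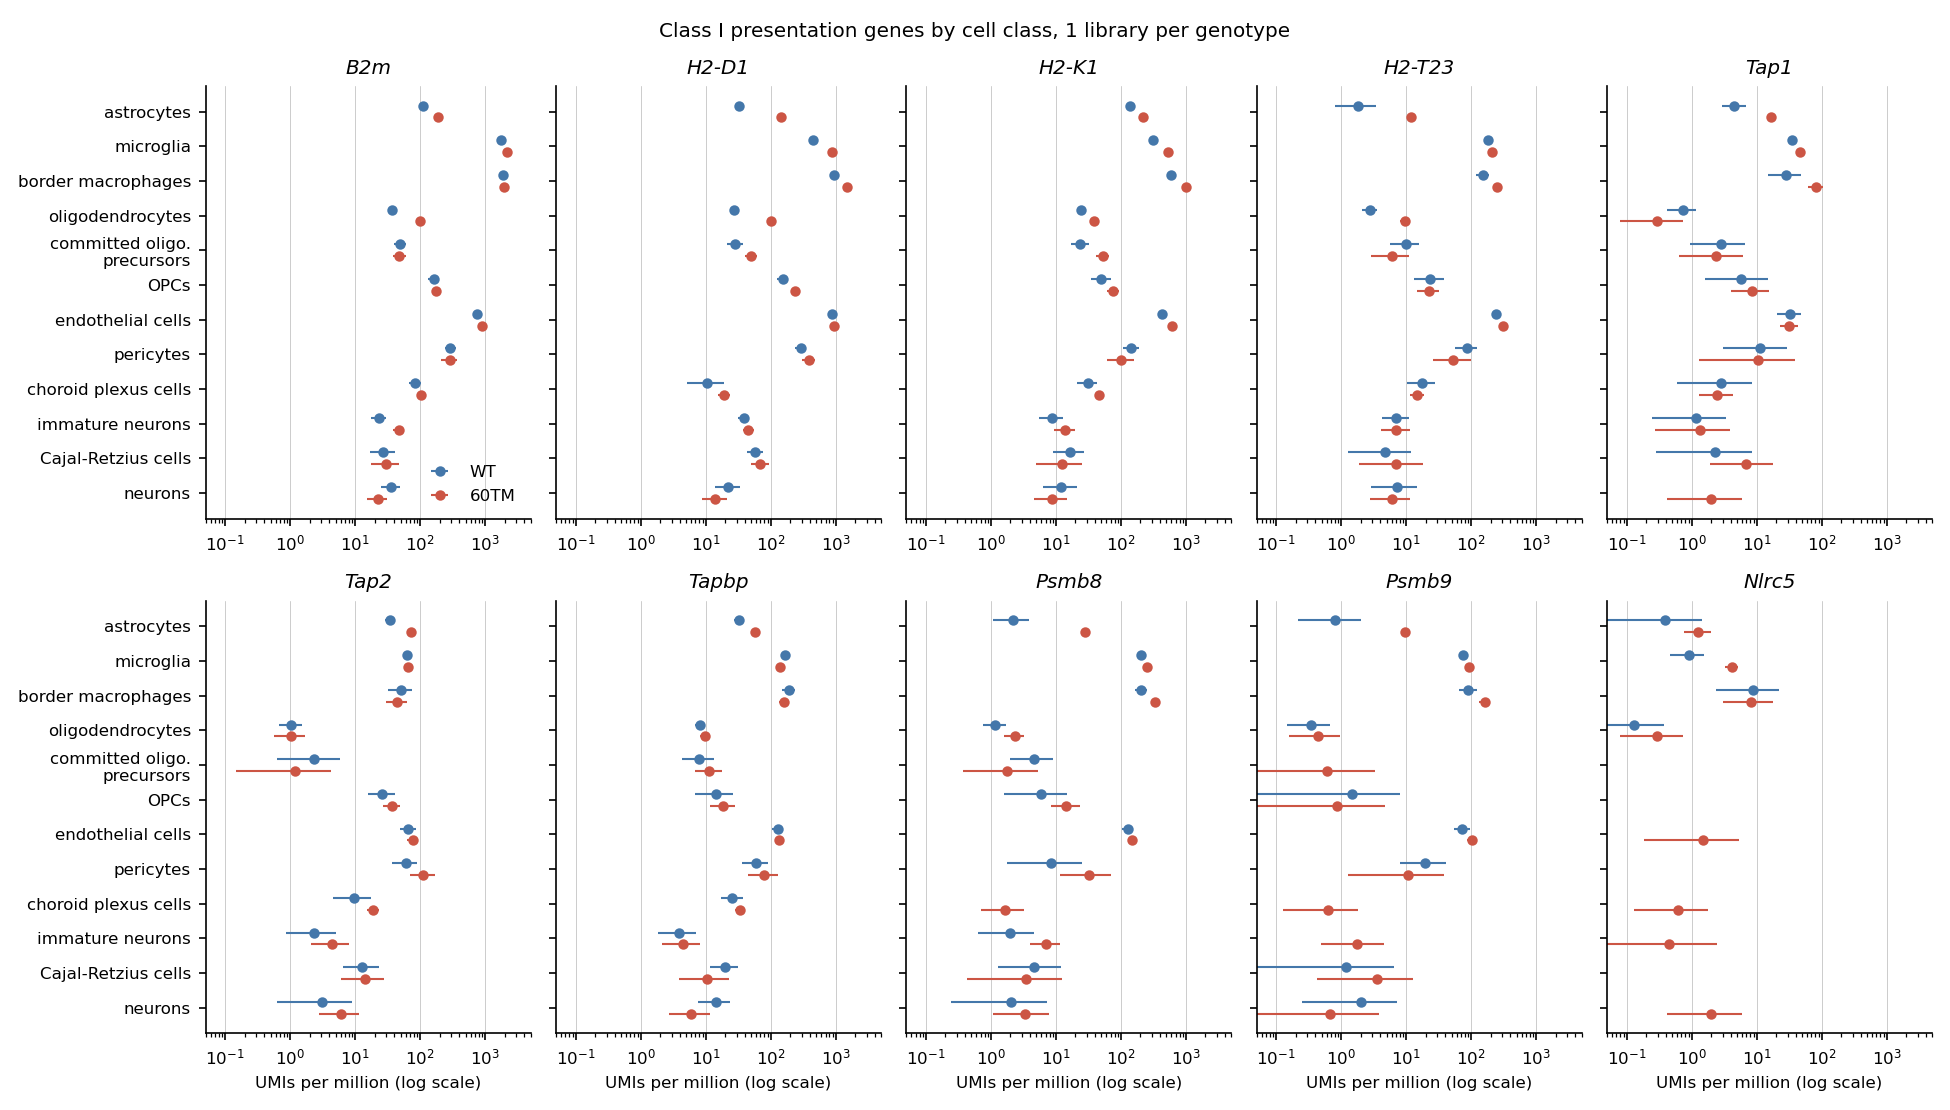
Level of each of the 10 genes in 12 cell classes, in CPM on a log axis. Points are the WT library (blue) and the 60TM library (red), bars are 95% counting intervals, and classes with 0 UMIs have no point. H2-D1 in astrocytes moves from 32.7 to 142, while its endothelial points lie at 879 and 957.

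Astrocytes carried the broadest difference. Of the 10 genes, 9 were called higher in 60TM and none lower, where 9.93% of 13261 genes were called higher in this class. The sums rest on 751 WT and 1960 60TM cells, with 5038561 UMIs in WT and medians of 6406 and 7255.5 UMIs per cell. The median log2 ratio (CPM + 5) of the 10 genes was 1.09, against -0.0040 over all genes measured.

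The light chain and heavy chains differed by unequal amounts in astrocytes. B2m was at 110 CPM in WT (101 to 119, 553 UMIs) and at 188 in 60TM (181 to 195, 2952 UMIs), a ratio of 1.71 (1.56 to 1.88). H2-D1, a classical heavy chain that presents peptides to CD8+ T cells, was at 32.7 CPM in WT (165 UMIs) and 142 in 60TM (2236 UMIs), a ratio of 4.35 (3.71 to 5.12). H2-K1, the other classical heavy chain of this strain, was at 137 and 221 CPM, a ratio of 1.62 (1.49 to 1.76). The intervals of the 2 libraries did not overlap for any of these 3 genes. H2-T23, which encodes Qa-1, a nonclassical heavy chain read by natural killer cell receptors, had 9 UMIs in WT (1.79 CPM, 0.817 to 3.39) and 188 in 60TM (11.97 CPM, 10.3 to 13.8), a ratio of 6.70 (3.45 to 14.9) that was 2.13 with no doublets removed and 4.23 in thinned cells, called higher in both. The ratios of B2m and H2-K1 were the closest to the limit of 1.5 among the heavy and light chains. B2m dropped to 1.33 under another cell filter (200 genes or more, mitochondrial UMIs up to 5%), and H2-K1 ranged from 1.41 to 1.47 in thinned cells, in the mean over cells and without the cluster found in 60TM alone, so both calls were lost there.

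The peptide transporter and tapasin were also higher in 60TM astrocytes. Tap1, one chain of TAP, was at 4.56 CPM in WT (23 UMIs) and 16.7 in 60TM (262 UMIs), a ratio of 3.65 (2.38 to 5.87) that was 2.43, still called, with cells assigned by marker score. Tap2, the partner chain, was at 33.9 and 73.1 CPM, a ratio of 2.15 (1.83 to 2.54). Tapbp, which encodes tapasin, the bridge between TAP and the heavy chain, was at 32.4 and 57.2 CPM, a ratio of 1.77 (1.49 to 2.10). Tapbp was under the limit in thinned cells (1.32) and with no doublets removed (1.48).

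The inducible proteasome subunits had the highest ratios among the 10 genes in astrocytes. Psmb8 encodes a catalytic subunit that replaces Psmb5 in the immunoproteasome. It rose from 11 UMIs in WT (2.18 CPM, 1.09 to 3.91) to 439 in 60TM (27.9 CPM, 25.4 to 30.7), a ratio of 12.8 (7.08 to 25.8). Psmb9, which replaces Psmb6, had 4 UMIs in WT (0.794 CPM, 0.216 to 2.03) and 153 in 60TM (9.74 CPM, 8.26 to 11.4), a ratio of 12.3 (4.70 to 45.6). The size of these ratios moved with the cells included, and the cause was not tested. The Psmb8 ratio was 3.44 with no doublets removed, 5.53 with cells assigned by marker score and 5.95 in thinned cells, and the Psmb9 ratio was 4.65 and 6.74 in the first and last of these. Both genes were called higher under each alternative run. Nlrc5 had 2 UMIs in WT and 20 in 60TM, a ratio of 3.21 whose interval (0.779 to 28.3) included 1.

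Shares of cells gave the same order at equal depth. After thinning to 2000 UMIs, an H2-D1 UMI was present in 6.12% (4.46 to 8.15) of 703 WT astrocytes and in 17.9% (16.2 to 19.8) of 1773 60TM astrocytes, against 16.6% and 41.6% without thinning. A Psmb8 UMI was present in 0.711% (0.231 to 1.65) and 3.67% (2.84 to 4.65) of the thinned cells, and in 1.46% and 12.9% without thinning. In oligodendrocytes, where this gene is usually low, the thinned shares of Psmb8 were 0.0710% of 1409 WT cells and 0.792% of 758 60TM cells. Median depths there were 14592 and 15566 UMIs. These shares rest on few cells, and Psmb8 was not called in thinned oligodendrocytes (ratio 5.58). Thinned astrocytes with UMIs of at least 3 of the 10 genes made up 2.13% in WT and 9.48% in 60TM.

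**Figure D2:**
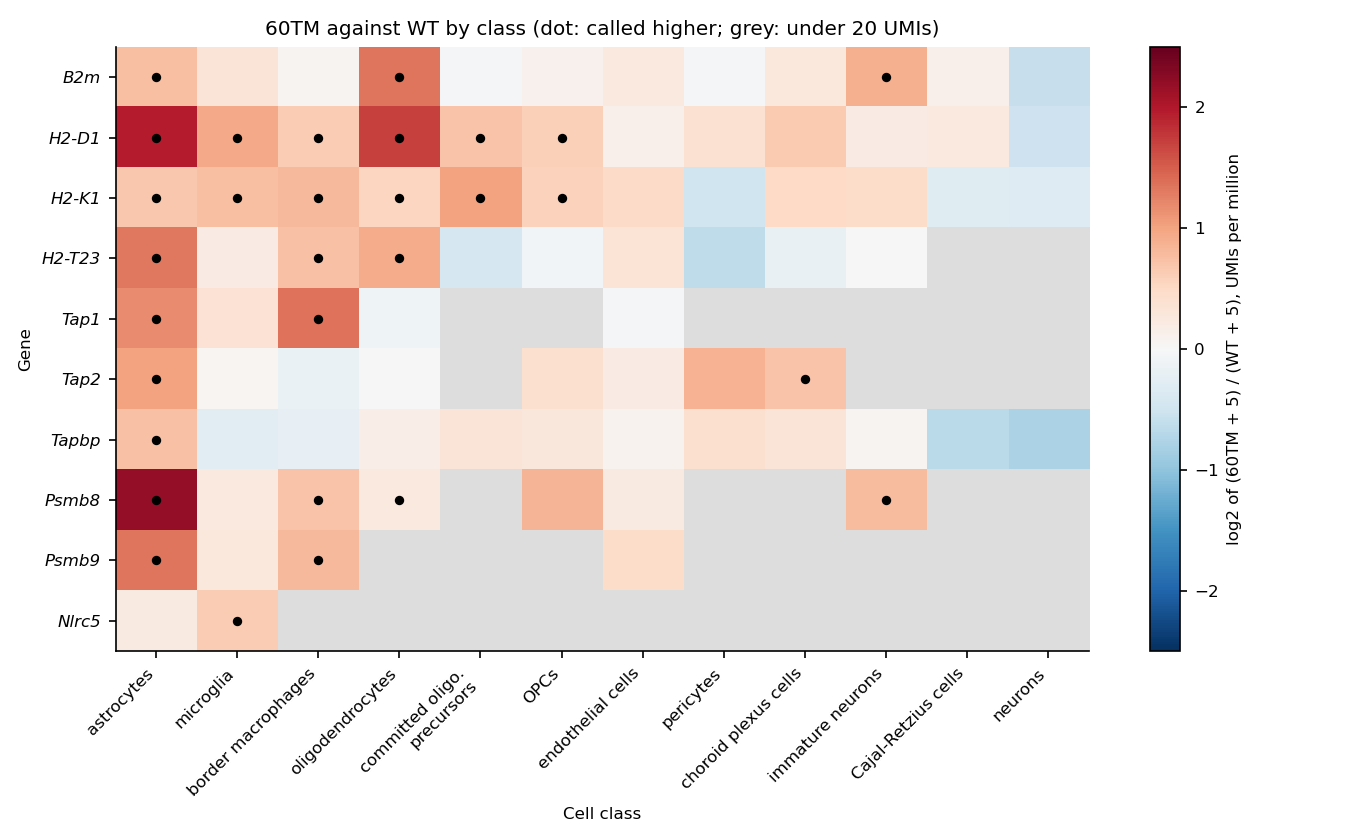
Log2 of the 60TM level over the WT level (CPM + 5) for the 10 genes (rows) in 12 classes (columns). Dots mark genes called higher, and grey marks genes with under 20 UMIs. The astrocyte column has 9 dots, the endothelial column none.

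Other cells' RNA in the astrocyte sums, where 9.93% of all genes were called higher, was measured with marker lists. All 10 microglial markers were detected there, 5 of them called higher in 60TM. Their sum was 131 CPM in WT and 170 in 60TM, which is 0.380% and 0.559% of their sum in microglia. Microglial RNA in that amount would carry 12.1 CPM of B2m, 4.87 of H2-D1 and 1.39 of Psmb8 in 60TM, where 188, 142 and 27.9 were measured. In WT it would carry 0.787 CPM of the 2.18 CPM of Psmb8. Of the 8 T and natural killer cell markers, 7 were at 0 in WT astrocytes and 4 in 60TM astrocytes. Cd3e, Cd3g, Nkg7 and Klrb1c were at 0 in both. The sum of the 8 was 5.36 and 8.15 CPM (27 and 128 UMIs), and 1 of 2 measured markers was called higher. Choroid plexus markers summed to 43.9 CPM in WT and 501 in 60TM. Immediate early and dissociation genes summed to 279 and 1546.5 CPM, with 13 of 14 measured genes called higher. The part of these last 2 lists in the class I result was not tested.

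Astrocytes of the 2 libraries lay mostly in different clusters. Cluster 1, led by Slc6a11 and Agt, held 68.3% of WT astrocytes and 27.9% of 60TM astrocytes. Cluster 2, led by Lcn2, Aldh1a1 and Gfap, held 25.0% and 56.7%. Within cluster 1, 1 of 6 measured members was called higher, against 3.07% of all genes: H2-D1, at a ratio of 1.80 (1.35 to 2.42). B2m there had a ratio of 0.984 (0.842 to 1.15) and H2-K1 of 0.833 (0.727 to 0.955). Within cluster 2, 7 of 9 measured members were called higher, against 8.26% of all genes. H2-D1 reached 2.57 (2.08 to 3.21), Psmb8 6.40 (3.07 to 16.0) and Tap2 2.17 (1.62 to 2.99), while B2m (1.43) and H2-K1 (1.45) were just under the limit. Cluster 24, shallow at a median of 1458 UMIs, had 2 of 3 called (5.65% of genes): H2-D1 (1 and 48 UMIs) and H2-K1 (5 and 54 UMIs). A further cluster of 80 cells, all from 60TM and led by Gdf15, Ccl2 and Cxcl10, had 469 CPM of H2-D1 (426 to 515), 305 of Tap2 (271 to 343) and 116 of Psmb8 (95.2 to 140). It was named from 3 astrocyte markers, with none among its 10 leading genes. Shallow cluster 8, left unnamed, scored highest for astrocyte markers and was led by Adamts9 and Tnc. There H2-D1 was the 1 of 6 called (1.68, 1.16 to 2.41), against 4.06% of genes.

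Lcn2, the secreted lipocalin 2 that marks reactive astrocytes, split the 60TM astrocytes further. No WT astrocyte had an Lcn2 UMI. The 1488 60TM astrocytes without one had 5 members called higher than in WT, against 6.03% of genes: H2-D1 (2.81, 2.38 to 3.33), H2-T23 (4.36, 2.19 to 9.89), Tap1 (2.32, 1.47 to 3.81), Psmb8 (6.30, 3.42 to 12.9) and Psmb9 (7.03, 2.60 to 26.7). The 472 with Lcn2 had 9 called higher, against 15.5% of genes, with ratios of 7.35 for H2-D1 (6.25 to 8.70), 2.31 for B2m (2.09 to 2.56), 3.46 for Tap2 (2.91 to 4.12) and 25.5 for Psmb8 (14.0 to 51.6). These cells were deeper, at a median of 10325.5 UMIs against 6679.5, so that the split by an Lcn2 UMI partly sorts by depth. The split was chosen after the data were seen.

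**Figure D3:**
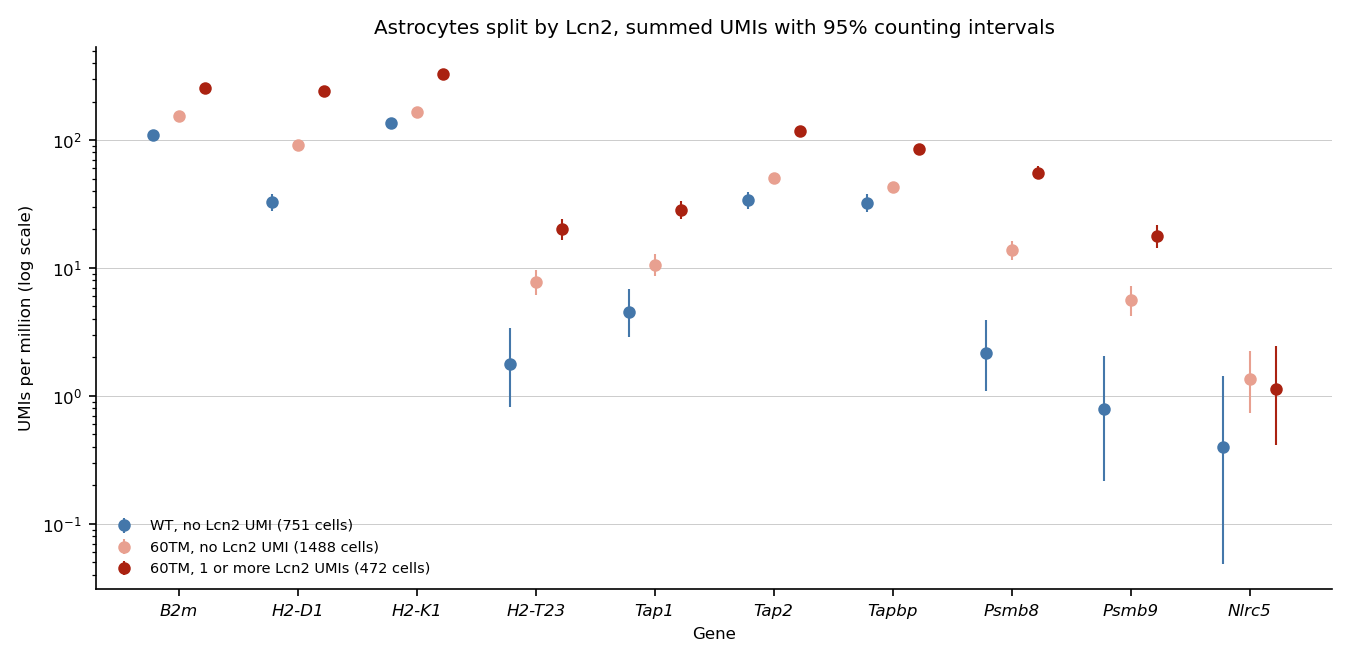
Level of the 10 genes in CPM (log axis) in WT astrocytes, 60TM astrocytes without an Lcn2 UMI and 60TM astrocytes with one. Bars are 95% counting intervals. For 9 of the genes the level is lowest in WT and highest with Lcn2, as for H2-D1 at 32.7, 91.9 and 241, while Nlrc5 overlaps in all 3.

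In microglia the classical heavy chains H2-D1 and H2-K1 and the transactivator Nlrc5 were higher in 60TM, and the other 7 genes were not past the limit. Here 3 of 10 genes were called higher and none lower, where 3.84% of 12808 genes were called higher. H2-D1 was at 448 CPM in WT (437 to 459) and 871 in 60TM (857 to 884), a ratio of 1.94 (1.89 to 2.003). H2-K1 was at 312 and 532 CPM, a ratio of 1.71 (1.65 to 1.77). Nlrc5, the class I transactivator, had 12 UMIs in WT and 78 in 60TM, a ratio of 4.61 (2.49 to 9.30). B2m, at 1734 and 2162 CPM, had a ratio of 1.25 (1.23 to 1.27), which is above 1 and short of the limit, and so were Tap1 (1.33, 1.19 to 1.49), Psmb9 (1.22, 1.13 to 1.32), Psmb8 (1.20, 1.14 to 1.25) and H2-T23 (1.15, 1.09 to 1.21). Tap2 was at 62.0 and 64.7 CPM, a ratio of 1.04 (0.954 to 1.14). Tapbp was lower in 60TM, at 168 CPM in WT and 139 in 60TM, a ratio of 0.831 (0.785 to 0.880) that is not past the limit.

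Microglial clusters shifted between the libraries as well. Cluster 3, led by P2ry12 and Slc2a5, held 47.1% of WT and 25.8% of 60TM microglia, and cluster 10, led by Ccl4, Tnf and Atf3, 15.1% and 33.9%. H2-D1 was called higher within each of the 4 microglial clusters with enough cells in both libraries, at ratios from 1.62 (1.54 to 1.72) in cluster 10 to 1.74 (1.64 to 1.85) in cluster 3. Tapbp had ratios from 0.728 (0.650 to 0.814) in cluster 3 to 0.945 (0.723 to 1.25) in cluster 5. Cluster 3 had 1 of 9 measured members called higher (3.37% of genes), cluster 5 had 2 of 9 (3.58% of genes), H2-D1 and Tap2, and cluster 6 had 2 of 9 (2.36% of genes), H2-D1 and H2-K1. Cluster 10 had 4 of 10 called higher (3.04% of genes): H2-D1, H2-K1, Tap1 and Nlrc5. Interferon genes led cluster 5 (51 WT and 304 60TM cells) and cluster 28 (1 and 59 cells). The 59 cells had 3264 CPM of B2m (3113 to 3421), 544 of H2-T23 (484 to 610) and 33.6 of Nlrc5 (19.9 to 53.0). Shallow cluster 4, led by Cd52 and Tyrobp and left unnamed, had 3 of 8 called (3.24% of genes). Without clusters 5 and 28, H2-D1, H2-K1 and Nlrc5 were the 3 calls of 10, at 1.85, 1.63 and 3.56, against 3.45% of genes. Immediate early and dissociation genes summed to 10686.5 CPM in WT microglia and 14932.5 in 60TM (6 of 15 called higher, against 3.84% of genes). Choroid plexus markers summed to 46.1 and 377 CPM. The part of these lists in the result was not tested.

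**Figure D4:**
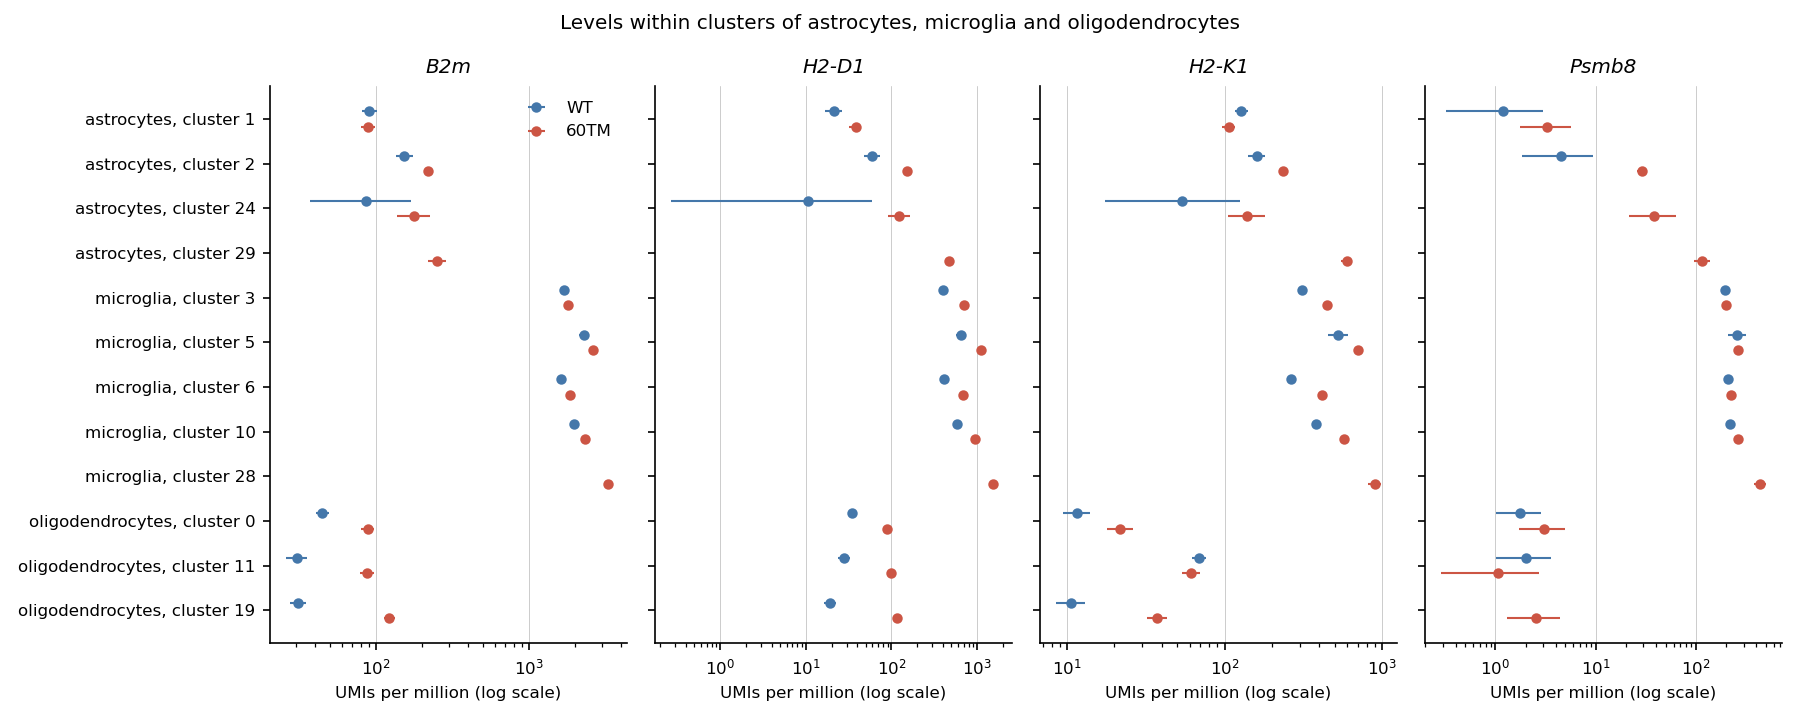
Level of B2m, H2-D1, H2-K1 and Psmb8 in CPM (log axes) within clusters of astrocytes, microglia and oligodendrocytes, WT in blue and 60TM in red, with 95% counting intervals. A missing point means under 50 cells or 0 UMIs. H2-D1 in 60TM lies above WT in each microglial cluster shown with both points, while Psmb8 in microglial cluster 3 has a ratio of 1.04.

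Border macrophages, the macrophages of the meninges and vessel spaces, had 6 of 9 measured genes called higher, where 4.58% of 6565 genes were called higher and 4.33% lower, from 81 WT and 121 60TM cells. H2-D1 was at 950 CPM in WT (863 to 1044) and 1482 in 60TM (1395 to 1573), a ratio of 1.56 (1.39 to 1.75). H2-K1 had a ratio of 1.76 (1.53 to 2.03), H2-T23 of 1.69 (1.27 to 2.26), Tap1 of 2.85 (1.55 to 5.67), Psmb8 of 1.66 (1.30 to 2.13) and Psmb9 of 1.79 (1.25 to 2.63). B2m was at 1894 and 1975 CPM, with a ratio of 1.04 (0.958 to 1.14). Of the 6 calls, 5 were lost under at least one alternative, mostly in thinned cells, where the Psmb9 ratio was 1.01. Microglial markers in border macrophages summed to 8879 CPM in WT and 5603 in 60TM (7 of 9 called lower) and choroid plexus markers to 56.7 and 543 CPM, and their part in the result was not tested.

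Oligodendrocytes had higher levels of the light chain and of 3 heavy chains in 60TM, while Tap1, Tap2 and Tapbp were not called. Of 8 measured genes, 5 were called higher, where 3.78% of 12385 genes were, and none lower, where 2.66% were. B2m was at 36.2 CPM in WT (33.8 to 38.7) and 99.6 in 60TM (94.4 to 105), a ratio of 2.75 (2.52 to 3.00), the highest B2m ratio among the 12 classes. H2-D1 was at 27.4 and 101 CPM, a ratio of 3.68 (3.35 to 4.05), and H2-T23 at 2.75 and 9.69 CPM, a ratio of 3.52 (2.60 to 4.82) that was 1.83, still called, with no doublets removed. H2-K1 (1.54, 1.37 to 1.74) and Psmb8 (27 and 32 UMIs, ratio 1.99, 1.16 to 3.46) were also called and lost the call once free RNA was subtracted. In thinned cells Psmb8 also lost its call (5.58), while H2-K1 kept it (2.79). Tap1 had 17 UMIs in WT and 4 in 60TM (0.396, 0.0969 to 1.21) and Tap2 24 and 14 UMIs (0.982, 0.469 to 1.98). Tapbp was at 8.08 and 9.69 CPM (1.20, 0.954 to 1.505). These 3 values moved with the setting. Tap1 was called lower in the mean over cells (0.578) and after subtraction of free RNA, which left 0 UMIs in 60TM. Tap2 was called higher with no doublets removed (1.80), and Tapbp in thinned cells (3.00).

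The oligodendrocyte clusters were in similar shares in both libraries, and B2m, H2-D1 and H2-T23 were called higher in each of the 3. In cluster 19, led by Hapln2 and holding 42.0% and 41.3% of the class, B2m had a ratio of 3.93 (3.39 to 4.56), H2-D1 of 6.01 (5.04 to 7.19) and H2-K1 of 3.53 (2.73 to 4.59), with 4 of 5 measured members called (3.36% of genes). In cluster 0, led by Ptgds and Il33, B2m had a ratio of 1.98 (1.73 to 2.27) and H2-D1 of 2.55 (2.21 to 2.95), with 4 of 6 called (3.47% of genes). In cluster 11, H2-K1 was not higher (0.891, 0.753 to 1.05), with 3 of 5 called (2.67% of genes). Microglial markers in oligodendrocytes summed to 91.6 and 104 CPM. Microglial RNA in that amount would carry 7.43 CPM of B2m and 2.99 of H2-D1 in 60TM, where 99.6 and 101 were measured. Immediate early and dissociation genes summed to 255 and 360 CPM in oligodendrocytes, with 9 of 14 called higher, against 3.78% of genes. Their part in the result was not tested.

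The oligodendrocyte lineage before maturity differed in the classical heavy chains. In OPCs 2 of 7 measured genes were called higher and none lower, against 2.03% and 2.92% of genes: H2-D1 (155 and 235 CPM, ratio 1.52, 1.21 to 1.92) and H2-K1 (49.6 and 76.4 CPM, ratio 1.54, 1.03 to 2.36). Both lay near the limit, and the H2-D1 call was lost under 4 alternatives, with ratios from 1.34 to 1.46. B2m in OPCs was at 162 and 175 CPM (1.08, 0.853 to 1.37). In committed oligodendrocyte precursors H2-D1 (1.74, 1.22 to 2.53) and H2-K1 (2.23, 1.52 to 3.31) were 2 calls of 5 measured genes, against 3.35% of genes, while B2m had a ratio of 0.977 (0.711 to 1.34). With cells assigned by marker score the H2-K1 ratio turned to 0.870, and in thinned cells the H2-D1 ratio was 1.05 and no longer called.

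The named vessel classes had high levels in both libraries, and no member was called in the sums over each class. An unnamed cluster led by Abcc9 and Higd1b (32 WT and 112 60TM cells) carried markers of pericytes and of endothelial cells. It belongs to neither class, and its WT cells were under the minimum of 50 for a ratio. In endothelial cells 0 of 9 measured genes were called higher, where 3.06% of 8691 genes were. H2-D1 was at 879 CPM in WT (813 to 950) and 957 in 60TM (905 to 1011), a ratio of 1.09 (0.989 to 1.20). H2-K1 (1.40, 1.23 to 1.60), H2-T23 (1.27, 1.06 to 1.52), B2m (1.19, 1.07 to 1.32) and Psmb9 (1.40, 1.01 to 1.96) had intervals above 1 and stayed short of the limit. The intervals of H2-D1, B2m and Tapbp lie below a ratio of 1.5, while those of the other 6 genes include it. In pericytes 0 of 6 measured genes were called, against 6.55% of genes, with H2-D1 at 294 and 383 CPM (1.30, 0.952 to 1.78). Pericytes gained calls under single alternatives: B2m (1.65), H2-T23 (1.60), Tap2 (1.79) and Tapbp (2.01) in the mean over cells, Tap2 (2.24) under the other cell filter, Tapbp (2.86) with no doublets removed and H2-K1 (1.54) with cells assigned by marker score.

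Choroid plexus cells and neuronal classes had low levels and few calls. In choroid plexus cells Tap2 was the single call of 6 measured genes (5.74% of genes), with 10 and 92 UMIs and a ratio of 1.99 (1.03 to 4.28) that turned to 0.370 in thinned cells. H2-D1 (1.84, 0.985 to 3.82) and H2-K1 (1.48, 1.02 to 2.21) were not called in this class. H2-D1 was called higher with no doublets removed (2.02) and with cells assigned by marker score (1.998), and was at 1.22 in the mean over cells. H2-K1 was called higher with no doublets removed (1.60) and in the mean over cells (1.72), and Tapbp in the mean over cells (1.58). In immature neurons 2 of 6 were called (3.21% of genes): B2m (23.2 and 46.9 CPM, ratio 2.02, 1.46 to 2.83) and Psmb8 (5 and 16 UMIs, ratio 3.60, 1.26 to 12.6). Both calls rest on the cells included: B2m dropped to between 1.20 and 1.38 under 3 alternatives, and Psmb8 lost its call under 4. H2-K1 in immature neurons, at 1.59 and not called, was called higher with no doublets removed (2.94) and in the mean over cells (2.23). Astrocyte markers in immature neurons summed to 731 CPM in WT and 1208 in 60TM (6 of 8 called higher) and choroid plexus markers to 29.9 and 348 CPM, and their part in the result was not tested. H2-D1 there was at 38.9 and 45.6 CPM (1.17, 0.880 to 1.56). None of the 4 measured genes was called in Cajal-Retzius cells (2.85% of genes) or in neurons (3.91% of genes called higher and 5.55% lower), where B2m was at 35.6 and 22.2 CPM (0.625, 0.376 to 1.04) and H2-D1 at 22.4 and 14.1 CPM (0.633, 0.331 to 1.21). The direction in neurons turned with the cells included, since with cells assigned by marker score B2m reached 2.24 and H2-D1 2.46, while after subtraction of free RNA they were called lower at 0.448 and 0.451. In Cajal-Retzius cells B2m (2.06), H2-D1 (1.68) and H2-K1 (2.97, against 0.750 otherwise) were called higher with no doublets removed, and B2m also with cells assigned by marker score (2.13) and in the mean over cells (1.72). In the sums over each class no member was called lower in any of the 12 classes, where 2.05% to 6.63% of all genes were. Under alternatives lower calls also appeared for Tap2 in border macrophages (0.597), H2-K1 (0.597) and Tapbp (0.488) in Cajal-Retzius cells and H2-D1 (0.325) and Tapbp (0.512) in neurons, each in the mean over cells, and for H2-T23 in committed oligodendrocyte precursors with cells assigned by marker score (0.477). H2-D1 and H2-K1 were called higher in 6 of the 12 classes each, B2m in 3 and Tapbp in astrocytes alone, with each of these genes measured in all 12. The other genes were measured in fewer classes. Psmb8 was called higher in 4 of 7 measured classes, H2-T23 in 3 of 10, Tap2 in 2 of 8, Tap1 in 2 of 5 and Psmb9 in 2 of 4. Nlrc5 was measured in 2 classes and called in microglia alone. These counts therefore do not rank the genes by breadth.

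The immunoproteasome subunits can be read against the constitutive subunits they replace. In astrocytes Psmb8 made up 0.940% of Psmb8 and Psmb5 UMIs in WT (0.470 to 1.68, 1170 UMIs) and 11.3% in 60TM (10.3 to 12.4, 3878 UMIs). The share of Psmb9 against Psmb6 was 0.385% (0.105 to 0.982) and 4.50% (3.83 to 5.25). The share of Psmb10, the other inducible subunit, against Psmb7 was 30.6% (27.3 to 34.0) and 35.6% (33.7 to 37.5), with overlapping intervals. The constitutive subunits were level between the libraries in astrocytes, with ratios of 0.952 for Psmb5, 1.01 for Psmb6 and 0.971 for Psmb7. In microglia Psmb8 made up 64.0% (62.5 to 65.4) and 67.3% (66.1 to 68.4), and in endothelial cells 35.0% (29.2 to 41.0) and 38.8% (34.6 to 43.2). In oligodendrocytes it made up 0.654% (0.432 to 0.9505) and 1.23% (0.843 to 1.73).

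**Figure D5:**
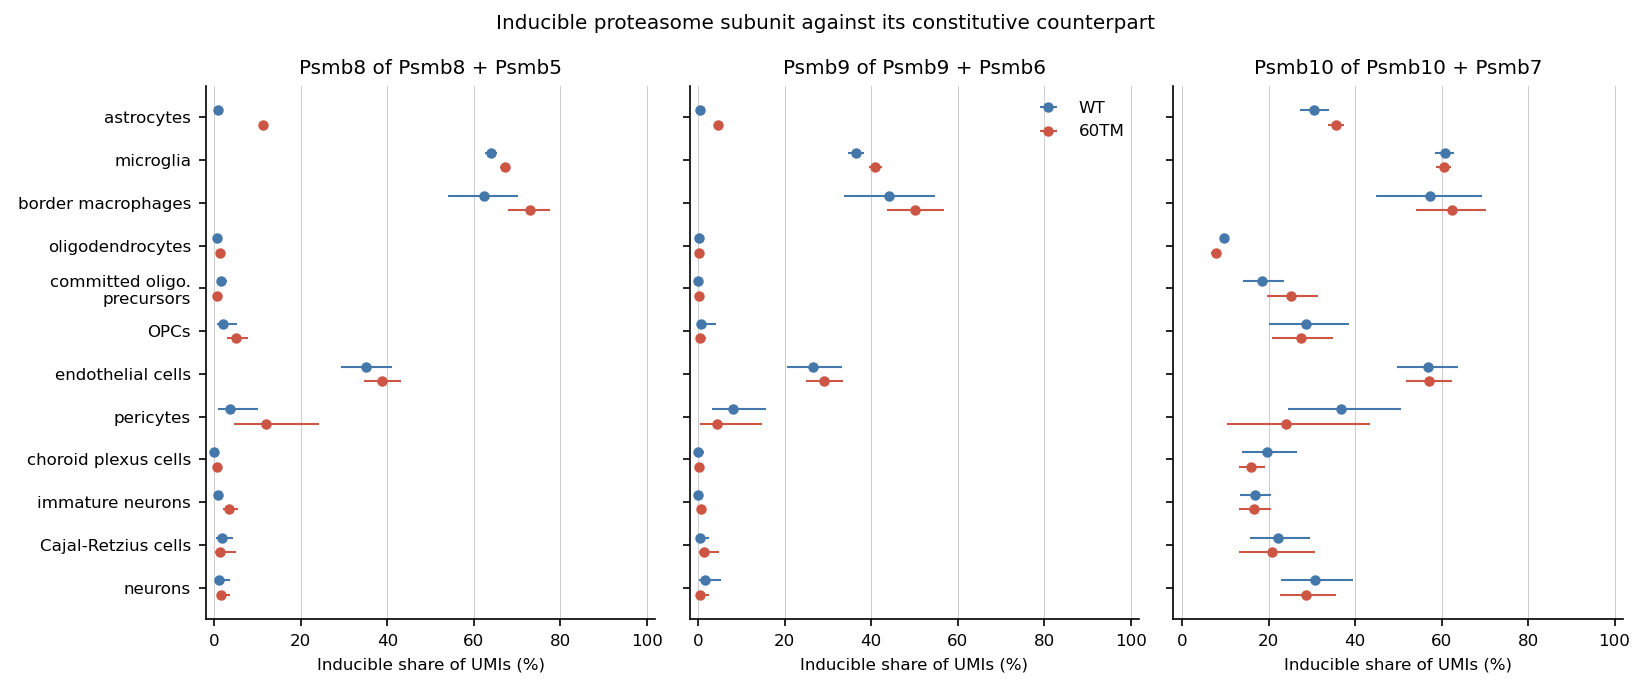
Share (%) of the inducible subunit among UMIs of the inducible and constitutive subunit of each pair, in 12 classes, WT in blue and 60TM in red, with exact 95% binomial intervals for counting error. Psmb8 in astrocytes goes from 0.940% to 11.3%, while microglia lie at 64.0% and 67.3%.

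Other class I genes were read from lists. Over all genes, 9.93% were called higher in astrocytes, 3.84% in microglia and 4.58% in border macrophages. Of the other heavy chain genes, 3 of 5 measured in astrocytes were called higher: H2-Q4 (2 and 169 UMIs, ratio 27.1, 7.39 to 226), H2-Q7 (1 and 64 UMIs, ratio 20.5, 3.55 to 823) and H2-T22 (1.62, 1.17 to 2.27). In microglia 4 of 7 were: H2-Q6 (16 and 191 UMIs, ratio 8.46, 5.08 to 15.1), H2-Q7 (5.35, 3.97 to 7.37), H2-Q4 (1.76, 1.52 to 2.04) and H2-M3 (1.67, 1.52 to 1.83). Windows of 90 bases shared with transcripts of other genes made up 9.49% for H2-Q4, 10.9% for H2-Q6, 26.5% for H2-T22 and none for H2-Q7. Of the other peptide loading genes, Tapbpl, a tapasin relative, was the 1 of 5 called in astrocytes (2.28, 1.56 to 3.43), and none of 5 was called in microglia. In astrocytes Canx had 1302 and 4063 UMIs (1.001, 0.940 to 1.07) and Calr 1499 and 3141 UMIs (0.672, 0.632 to 0.715), a value just short of a lower call. In border macrophages 3 of 5 other heavy chains and 2 of 3 other immunoproteasome genes were called, among them H2-Q4 (2.65, 1.26 to 6.24) and Psme1 (1.57, 1.25 to 1.98). In oligodendrocytes Pdia3, the disulfide isomerase of the loading complex, was higher (1.72, 1.63 to 1.80).

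Factors known to act on class I promoters differed between the libraries in a few members of their list. In astrocytes those called higher included Irf1, an interferon-induced activator, with 21 and 908 UMIs (ratio 13.9, 9.02 to 22.5), and Irf9 (2.41, 1.77 to 3.36). Rfxank, a subunit of the RFX complex, was the 1 of 11 called lower (0.608, 0.496 to 0.749), where 6.05% of genes were. In microglia they included Stat2 (2.08, 1.74 to 2.49) and Irf1 (1.55, 1.39 to 1.73). In oligodendrocytes Irf9 (2.27, 1.67 to 3.08) was called higher and Rfxank lower (0.643, 0.517 to 0.796). The 17 interferon-stimulated genes of the list were each called higher in astrocytes and in microglia. So were 5 of 14 (with Rsad2 called lower) in oligodendrocytes and 5 of 17 in endothelial cells. Over all genes, 9.93%, 3.84%, 3.78% and 3.06% were called higher in these classes, in that order. In oligodendrocytes 2.66% were called lower. Interferon-stimulated genes were also called higher in border macrophages (13 of 16, against 4.58% of genes) and OPCs (6 of 6, against 2.03%). Committed oligodendrocyte precursors had 4 of 6 (3.35% of genes) and choroid plexus cells 4 of 7 (5.74%), with 1 lower (3.78%). Pericytes had 3 of 5 (6.55% of genes), while 0 of 6 class I members were called there. Immature neurons had 1 of 2 (3.21% of genes) and neurons 1 of 1 (3.91%).

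Interferon and receptor genes were measured in the same sums. Ifng, the gene of interferon gamma, had 0 UMIs in astrocytes and microglia of both libraries. All 21 Ifng UMIs of the 60TM library lay in 8 of its 27 T or natural killer cells, and 4 of the 5 WT UMIs in 1 of 8 such cells. Ifnb1 had 0 UMIs in astrocytes and 1 in WT microglia. The interferon gamma receptor genes in astrocytes were at 58.4 and 80.5 CPM for Ifngr1 (1.38, 1.21 to 1.57) and at 24.6 and 36.1 CPM for Ifngr2 (1.47, 1.21 to 1.80). Jak2, the kinase bound to that receptor, was called higher (1.51, 1.16 to 1.97), and Ifnar1 had a ratio of 0.968 (0.827 to 1.14). In microglia Socs1, an interferon feedback inhibitor, was higher (1.84, 1.40 to 2.44), and Lilrb4a, an inhibitory receptor of the leukocyte immunoglobulin-like family, was lower (0.499, 0.349 to 0.709), where 3.09% of genes were called lower.

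Over the 24 points of class and library, 8 genes of 11684 ranked were closest to the mean log2 level (CPM + 5) of the 10 genes: H2-M3 (Pearson r of 0.957), Igtp, Dtx3l, Irgm2, Il10rb, Shisa5, Ddx58 and Gbp7 (0.940). The points share 2 libraries, and the classes differ in depth, so these values are a description.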

How the data were processed

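The authors deposited, per the file headers, a matrix of whole UMI counts per gene and cell barcode for each genotype. Per the submitters' processing notes, Cell Ranger 5.0.0 and the GRCm38 build were used, and no source used here says how intronic reads were treated. The gene and barcode tables deposited beside the counts were used as names. Python 3.11.15, scanpy 1.11.5 and SciPy 1.17.1 were used. Barcodes with under 500 genes or over 15% mitochondrial UMIs were removed, and then 377 WT (5.49%) and 610 60TM (6.99%) barcodes with the highest Scrublet scores. Counts were scaled to 10000 per cell and logged. Both libraries were clustered together (2000 variable genes, leaving out the class I pathway lists but not the interferon-stimulated and immediate early lists, 30 components, 15 neighbours, Leiden resolution 1). To take a class name, a cluster needed at least 3 markers of the class that were detected and high in it. Even so, it stayed unnamed if a second class scored nearly as well or if its top genes pointed more to a different class. A shallow cluster also stayed unnamed if its top genes included no marker of the class. Clusters 4, 8, 15 and 16 were left out in these ways, so cluster 8, with 10 astrocyte markers, is not in the astrocyte sums. Unnamed cells made up 9.76% of WT and 11.6% of 60TM cells. Raw counts were summed per class and library. Ratios have exact conditional binomial intervals, sums exact Poisson intervals and shares exact Clopper-Pearson intervals, at 95%. UMIs are counted molecules, and the intervals cover counting error only. With 1 library per genotype, no test between genotypes could be made. The 10 genes, the marker and pathway lists and the naming rule were chosen with earlier results of these data known. For the 10 genes the text gives each call in the sums over classes with at least 50 cells per library. Of the genes not called there, it gives only some in several classes, among them choroid plexus cells, pericytes, neurons, endothelial cells and border macrophages. From the other lists it gives genes called at a ratio of at least 2 in astrocytes or microglia, otherwise the 2 with most UMIs, and further list genes picked after their values were seen. Alternatives covered doublets, cell filters, clustering, thinning, scaling, free RNA, cell assignment and UMI minimums. One gene of the lists is not reported here. The calculations were tested on simulated data.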

Additional observations from a re-analysis of the deposited data

Results flagged for a closer look

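Tapbp, the tapasin gene, had a 60TM to WT ratio of 0.831 (0.785 to 0.880) in microglia, below 1 and not past the limit, and of 1.77 (1.49 to 2.10) in astrocytes, where it was called higher. The astrocyte call was lost in thinned cells (1.32) and with no doublets removed (1.48). The difference between the classes was not tested, since each genotype has 1 library.

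Class I genes also differed in clusters that no class name covers and that the comparisons by class leave out. In cluster 4, led by Cd52 and Tyrobp and shallow (89 WT and 226 60TM cells, median 1708 UMIs), 3 of 8 measured members were called higher, against 3.24% of genes: H2-D1 (2.47, 1.93 to 3.19), H2-K1 (1.87, 1.33 to 2.67) and H2-T23 (1.64, 1.05 to 2.66). In cluster 8, led by Adamts9 and Tnc and shallow (329 and 163 cells, median 2388.5 UMIs), 1 of 6 was called, H2-D1 (1.68, 1.16 to 2.41), against 4.06% of genes. In cluster 15, led by Frzb and Hopxos (144 and 379 cells), 4 of 9 were called, against 3.6% of genes: B2m (1.73, 1.46 to 2.05), H2-D1 (1.91, 1.54 to 2.38), H2-T23 (2 and 67 UMIs, ratio 12.2, 3.24 to 103) and Psmb8 (3.12, 2.04 to 4.98).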

How the results depend on the processing

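The number of the 10 genes called higher in astrocytes was 7 to 9 under the other settings tried and was 5 without the 60TM astrocytes with an Lcn2 UMI, a setting chosen after seeing the data. In microglia the number was 2 to 3, in oligodendrocytes 4 to 6 except for 3 after subtraction of free RNA, and in endothelial cells 0 under each alternative run. The H2-K1 ratio in committed oligodendrocyte precursors turned to 0.870 with cells assigned by marker score, and the Tap2 ratio in choroid plexus cells turned to 0.370 in thinned cells. The cause was not tested in either case. Thinning to 2000 UMIs moved 24 of 82 results, leaving out astrocytes with an Lcn2 UMI 7 of 10, and leaving out the microglial clusters led by interferon genes 4 of 10. Low counts limit Nlrc5 in the classes other than microglia and Tap1, Tap2 and Psmb9 in oligodendrocytes and neurons. No paired analysis was possible because each genotype has 1 library of pooled mice.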

Other observations

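Classes with under 50 cells in a library also carried class I RNA. T or natural killer cells (8 WT and 27 60TM cells) were at 2315 (1880 to 2822) and 2272 (2035 to 2529) CPM of B2m and at 2741 (2265 to 3287) and 2456 (2209 to 2723) CPM of H2-D1, with overlapping intervals. Dividing cells (43 and 52) were at 88.7 (68.7 to 113) and 448 (402 to 499) CPM of B2m and at 82.1 (62.9 to 105) and 201 (171 to 236) CPM of H2-D1. These cells mix types that divide, and their makeup was not compared. Ependymal cells (131 and 42) were at 49.3 (40.7 to 59.2) and 74.9 (55.0 to 99.6) CPM of H2-D1 and at 70.5 (60.1 to 82.2) and 105 (81.3 to 134) CPM of H2-K1.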
